A study of Danio rerio with 11 samples.

Results

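The genes described here are those of the mitochondrial respiratory chain and ATP synthase in the brain of adult zebrafish. They are the 116 of 16536 genes in the deposited table whose symbols begin with mt-, nduf, uqcr, atp5, sdh followed by a, b, c or d, or cox followed by a digit. Of these, 13 are encoded by the mitochondrial genome (the mt- genes) and 103 by the nucleus. The nuclear genes comprise 81 structural subunits, 19 assembly factors and 3 others, namely ndufa4l2a, cox7a3 and atp5s, of which the reference gene table calls cox7a3 COX7A2L and atp5s DMAC2L. The rule used symbols only and no measured value, but it was chosen with earlier results of these data known. Whole-brain RNA of 11 libraries was compared between 4 genotypes, all labelled as about 8 months old, of TLF x AB background and carrying mpeg1-GFP, a transgene whose promoter is active in macrophages and microglia. There were 2 wild-type (control) libraries and 3 libraries each of csf1ra-/- (single mutant), csf1ra-/-;b+/- fish (here called csf1rb heterozygotes, although they are also csf1ra-/-) and csf1ra-/-;b-/- fish (double mutant), so all mutants are homozygous for a csf1ra mutation and differ among themselves in csf1rb. Zebrafish carry the receptor of colony-stimulating factor 1, on which microglia depend, in 2 copies, csf1ra and csf1rb. The labels name no allele and do not say whether a library is 1 brain or a pool, and the design text speaks of triplicate controls while 2 control libraries were analysed here. Brains were held in trypsin on ice for 2 hours before freezing, per the labels' protocols.

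The respiratory chain passes electrons from NADH and succinate to oxygen through complexes I to IV in the inner mitochondrial membrane and pumps protons, which drive ATP synthesis by complex V. Complexes I, III, IV and V combine subunits from both genomes, whereas complex II is encoded by the nucleus alone. The mt- mRNAs are cut from long transcripts of the whole mitochondrial genome, while each nuclear subunit has its own promoter and is imported as protein. Neurons, which fire and restore ion gradients continuously, are among the cells with the highest demand for this pathway.

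The libraries held 12.8 to 15.3 M reads, so that 1 CPM (1 read per 1e6 reads of the library, scaled by the authors' normalization factor) stood for 12.3 to 15.7 reads. All 12 listed neuron markers were present. They summed to 10429 to 10668 CPM in controls, 9378 to 10435 in single mutants, 9310 to 9957 in csf1rb heterozygotes and 8802 to 10771 in double mutants. csf1ra stood at 7.33 to 9.66 CPM in controls, 0.952 to 5.10 in single mutants, 0.584 to 0.976 in csf1rb heterozygotes and at most 0.602 in double mutants. csf1rb stood at 13.6 to 21.6, 8.42 to 14.4, 1.60 to 3.83 and 1.97 to 2.52 CPM. The summed level of 18 microglia and macrophage markers, both receptor genes among them, was 653 to 1046 CPM in controls, 441 to 643 in single mutants, 275 to 293 in csf1rb heterozygotes and 197 to 302 in double mutants, with 2 of the 18 at 0 in at least 1 library. The summed level of 10 oligodendrocyte and myelin markers was 9118 to 10516 CPM in controls and 6099 to 8137 in the mutants. The 8 erythrocyte markers in the table (of 10 listed) summed to 212 to 314 CPM in controls, 442 to 763 in single mutants, 277 to 433 in csf1rb heterozygotes and 331 to 486 in double mutants. The 2 pituitary markers in the table (of 7) summed to 89.3 to 107 CPM in controls, 81.7 to 133 in single mutants, 6.27 to 12.2 in csf1rb heterozygotes and 4.13 to 7.76 in double mutants. In bulk tissue, fewer cells of a type and less RNA per cell cannot be told apart, and the part of these cell types in the results below was not tested.

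Transcripts of the mt- genes made up 6.56% to 8.56% of the reads of a library. In control libraries their share was 8.41% and 7.41%, in single mutants 7.88%, 8.45% and 7.85%, in csf1rb heterozygotes 7.52%, 8.56% and 7.80%, and in double mutants 6.56%, 7.60% and 7.12%. The mean share was thus lowest in double mutants (7.09% ± 0.52, SD, n = 3, against 7.91% ± 0.71, n = 2, in controls), but double mutant replicate 2 lay above control replicate 2. The 103 nuclear genes together took a much smaller share, 1.08% and 1.30% in controls, 1.04%, 1.31% and 1.15% in single mutants, 1.11%, 1.31% and 1.22% in csf1rb heterozygotes, and 1.32%, 1.31% and 1.23% in double mutants. The reads of mt- genes were 7.79 and 5.71 times those of the nuclear genes in controls, 7.60, 6.45 and 6.81 times in single mutants, 6.79, 6.52 and 6.40 times in csf1rb heterozygotes, and 4.96, 5.82 and 5.80 times in double mutants. This ratio does not depend on how libraries are scaled. The 3 double mutant libraries lay below all 6 libraries of the other mutants and below control replicate 1, but not below control replicate 2, which stood between them, so the controls alone spanned 2 of the 3 double mutant values.

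**Figure D1:**
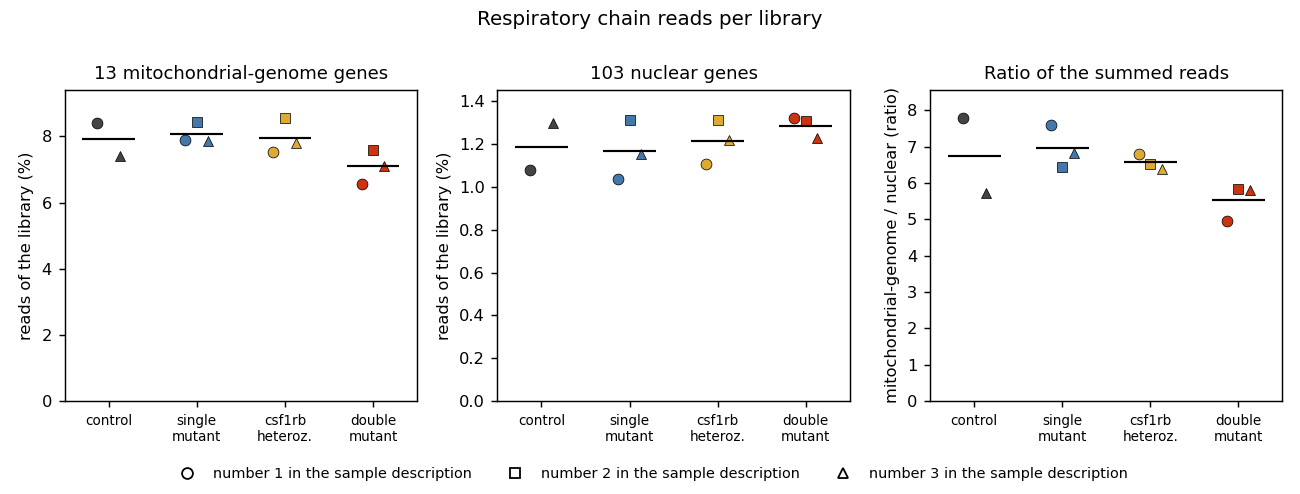
Share of each library's reads (%) in the 13 mt- genes (left) and the 103 nuclear genes (middle), and the ratio of the summed reads (right), with 1 point per library, bars at the group mean and symbols for the number in the sample description. The double mutant ratios of 4.96 to 5.82 lie below those of the other mutants (6.40 to 7.60), while the controls lie at 5.71 and 7.79.

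Each gene was compared between genotypes with limma on log2(CPM + 1), with Benjamini-Hochberg adjustment over all 16536 genes, and called at an adjusted p under 0.05. No mt- gene was called in any of the 6 comparisons. Of all genes, 0.472% were called in single mutants against controls, 0.671% in csf1rb heterozygotes and 1.16% in double mutants. edgeR's quasi-likelihood test, applied to reads recovered from the CPM, called 0 mt- genes as well, and 0.454%, 0.472% and 1.23% of all genes. At an unadjusted p under 0.05 there were 0, 2 and 5 of the 13 mt- genes, against 11.4%, 15.6% and 16.1% of all genes.

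All 13 mt- genes had a lower mean log2 level in double mutants than in controls, with a median difference of -0.29 against 0.01 over all genes; under the other settings tried 12 or 13 of the 13 were below 0 and the median lay between -0.39 and -0.17. The gene that turned was mt-nd1, a core membrane subunit of complex I, with a difference of -0.02 that turned positive without the normalization factors, with library totals that exclude mt- reads, and without control replicate 1, double mutant replicate 1 or double mutant replicate 3. In single mutants 8 of the 13 had a mean above that of controls, with a median of 0.03, and in csf1rb heterozygotes 4 of 13, with a median of -0.02. Both of those medians changed sign when libraries were left out. The mt- genes varied together across libraries, with a median Pearson correlation of 0.73 between pairs, so their 13 directions are not separate observations. The deviation was uneven among the double mutant libraries. Taking each mt- gene relative to its mean over the 11 libraries, the median stood at -0.40 in double mutant replicate 1, 0.02 in replicate 2 and -0.24 in replicate 3, and at 0.16 and 0.00 in the controls.

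Among the mt- subunits of complex I, mt-nd3 alone separated the double mutants from every other genotype. It stood at 990.1 and 959.9 CPM in controls, 1043, 982.6 and 960.8 in single mutants, 983.3, 1064 and 873.5 in csf1rb heterozygotes, and 668.3, 813.2 and 785.6 in double mutants. All 3 double mutant libraries lay below all 8 others. The difference from controls was -0.37 ± 0.11 (SE; adjusted p = 0.142) and that from single mutants -0.40 ± 0.10 (adjusted p = 0.0995), neither past the threshold. mt-nd5, the distal proton-pumping subunit, stood at 2503 and 2217 CPM in controls, 2443, 1867 and 2004 in single mutants, 2101, 2036 and 1872 in csf1rb heterozygotes, and 1177, 1933 and 1534 in double mutants. Its ranges did not overlap between double mutants and controls, with a difference of -0.63 ± 0.18 (adjusted p = 0.128). mt-nd4 (-0.25), mt-nd2 (-0.15) and mt-nd6 (-0.30), of which mt-nd6 is the only mRNA read from the other strand, overlapped between those groups.

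Of the complex IV subunits, which form the catalytic core of cytochrome c oxidase, mt-co2 did not overlap between double mutants and controls. It stood at 12478 and 11871 CPM in controls and at 8327, 11079 and 9842 CPM in double mutants, a difference of -0.33 ± 0.15 (adjusted p = 0.302). mt-co1 and mt-co3 had smaller differences of -0.13 and -0.11, with overlapping ranges. mt-cyb, the only mt- subunit of complex III, stood at 7331 and 5978 CPM in controls and at 4797, 6230 and 5319 in double mutants, a difference of -0.29 ± 0.14 (adjusted p = 0.354), with double mutant replicate 2 inside the control range. In all, 5 of the 13 mt- genes had every double mutant library below both controls, namely mt-nd3, mt-nd5, mt-nd4l, mt-co2 and mt-atp8. That is 38.5% of them, against 16.6% of all genes, but the mt- genes varied together and are not separate observations. Of these, mt-nd5, mt-nd4l and mt-atp8 were also below both controls in every csf1rb heterozygote library.

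**Figure D2:**
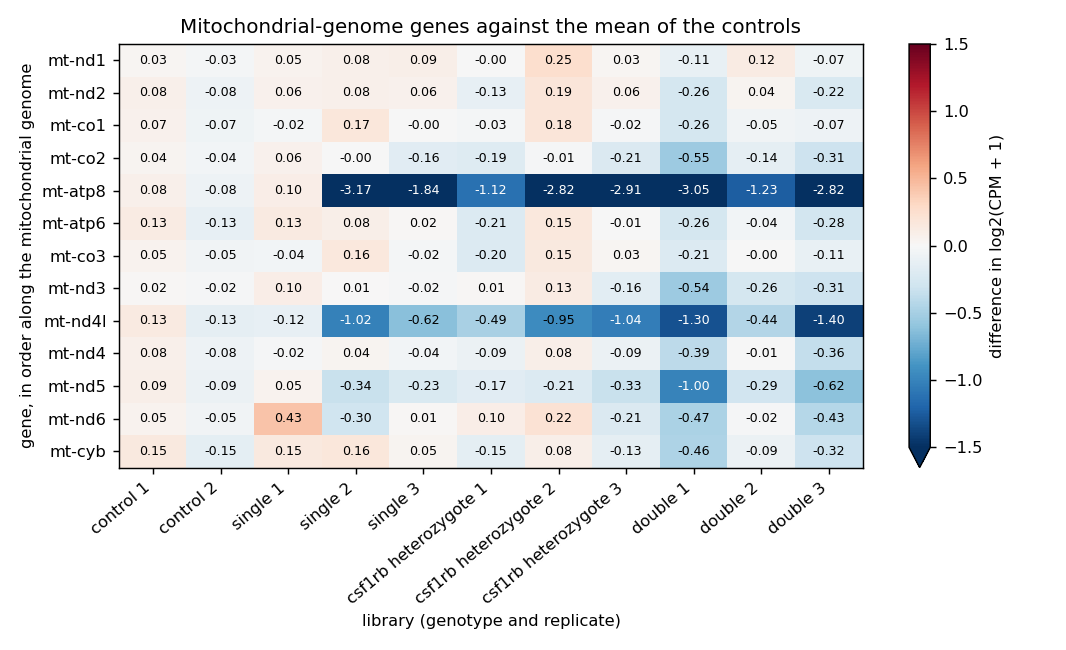
Difference in log2(CPM + 1) of each mt- gene in each library from the mean of the 2 controls, with genes in their order along the mitochondrial genome. The rows of mt-atp8 and mt-nd4l depart from their neighbours, from -3.17 to 0.10 and from -1.40 to 0.13, and double mutant replicates 1 and 3 are below 0 in all rows.

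mt-atp8, a short subunit of complex V, had the largest residual SD within genotypes among the members on the log2(CPM + 1) scale. It stood at 426.3 and 383.3 CPM in controls, 434.8, 43.9 and 112.0 in single mutants, 185.8, 56.3 and 52.8 in csf1rb heterozygotes, and 47.9, 171.4 and 56.3 in double mutants. Single mutant replicate 1 was as high as the controls, and the other 8 mutant libraries were all below them. The difference from controls was -1.64 ± 0.83 in single mutants (adjusted p = 0.486), -2.28 ± 0.83 in csf1rb heterozygotes (adjusted p = 0.227) and -2.37 ± 0.83 in double mutants (adjusted p = 0.204). Its residual SD was 1.16 log2 units, against a median of 0.14 over the mt- genes and 0.19 over all genes. In zebrafish as in other vertebrates mt-atp8 shares an mRNA and some bases with mt-atp6, and how shared reads were counted is not given in the sources used here.

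Within a library, mt-atp8 reads came to 4.11% and 4.41% of mt-atp6 reads in controls, 4.18%, 0.437% and 1.17% in single mutants, 2.26%, 0.533% and 0.558% in csf1rb heterozygotes, and 0.605%, 1.86% and 0.719% in double mutants. mt-atp6 itself, the proton channel subunit, differed by -0.19 between double mutants and controls, with overlapping ranges (7829 to 9211 against 8693 and 10371 CPM). The unequal levels of these partners thus lay between libraries of the same genotype as well as between genotypes. mt-nd4l, a short complex I subunit that shares its mRNA with mt-nd4, was likewise highest in the controls and single mutant replicate 1. It stood at 351.0 and 292.0 CPM in controls, 294.3, 157.5 and 207.6 in single mutants, 228.2, 165.7 and 154.9 in csf1rb heterozygotes, and 129.1, 236.0 and 120.8 in double mutants. The difference of double mutants from controls was -1.05 ± 0.30 (adjusted p = 0.129), and without double mutant replicate 2 it was -1.35 and passed the test (adjusted p = 0.0497). Relative to mt-nd4, reads of mt-nd4l lay within 7.03% to 7.58% in controls and 3.53% to 5.40% in double mutants. They were about as low in other mutant libraries, at 6.79%, 3.49% and 4.86% in single mutants and 5.54%, 3.57% and 3.75% in csf1rb heterozygotes.

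**Figure D3:**
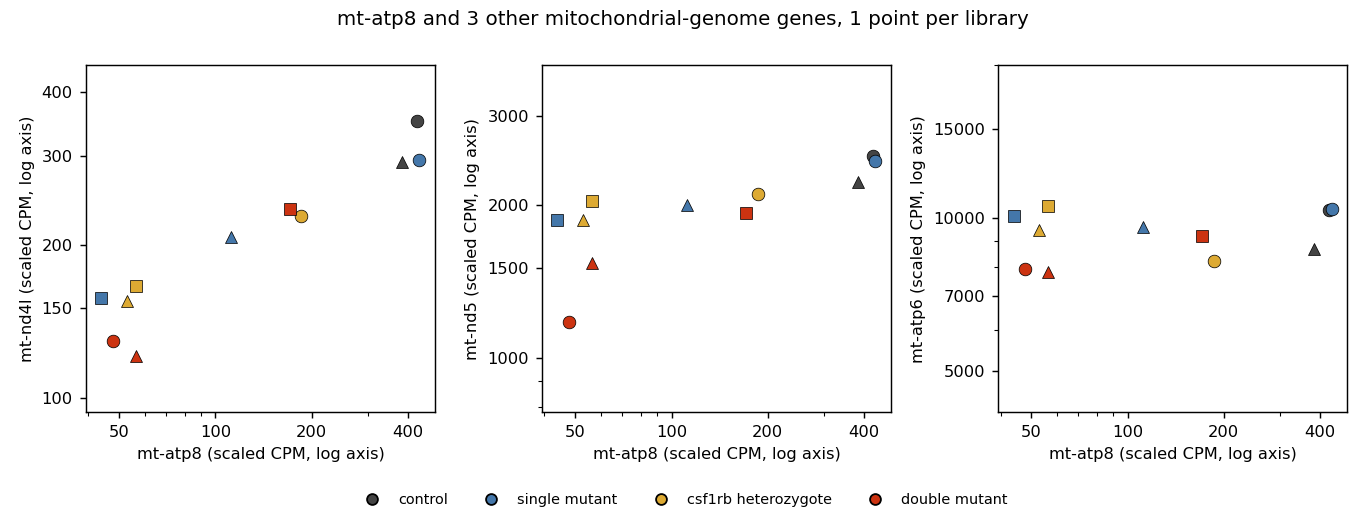
mt-atp8 (x axis) against mt-nd4l, mt-nd5 and mt-atp6 (y axes) in scaled CPM on log axes, with 1 point per library, coloured by genotype, with symbols for the number in the sample description. The controls and single mutant replicate 1 stand at the upper end of mt-atp8 (383.3 to 434.8 CPM) and of mt-nd4l (292.0 to 351.0 CPM), and mt-atp6 spreads over 7829 to 10572 CPM without following mt-atp8.

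Genes outside the respiratory chain with the most similar order of libraries to mt-atp8 (looked up after its values were seen) were prune2, tspan7b, tmtc1, fam134c and maf1, with Pearson correlations of log2(CPM + 1) of 0.99, 0.98, 0.98, 0.98 and 0.98 over the 11 libraries. tspan7b, a tetraspanin of neurons in mammals, stood at 879.1 and 973.7 CPM in controls and 922.9 in single mutant replicate 1, and at 524.5 to 725.9 CPM in the other 8 libraries. Of 13225 other genes with a mean of at least 5 CPM, 196 (1.48%) correlated with mt-atp8 at 0.9 or above and 19 at -0.9 or below. For the mean log2 level of the 13 mt- genes, the most similar were noc4l (0.96), ctnnbip1 (0.95), eif4ebp2 (0.95), ormdl2 (0.94) and epb41a (0.94). This mean weighs mt-atp8 and mt-nd4l heavily, with residual SDs of 1.16 and 0.41 log2 units against a mt- median of 0.14. All of these similar genes lay below both controls in single mutant replicate 2 and csf1rb heterozygote replicate 2. There the median deviation of the mt- genes from their means over libraries was 0.11 and 0.17, against 0.16 and 0.0009 in controls. Likeness without mt-atp8 and mt-nd4l was not tested. These correlations describe 11 libraries that share controls and depth, and they were picked as the highest of many.

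Among the nuclear genes, 3 complex I and IV subunits were higher in double mutants than in controls, and no nuclear gene was called lower. They were cox8b, cox4i1l and ndufb3. In comparison, 0.363% of all genes were called higher in double mutants. The authors' deposited table calls the same 3 members in this comparison. In csf1rb heterozygotes cox8b was the only nuclear member called, and 0.266% of all genes were called higher. In single mutants none was called by limma or by edgeR's quasi-likelihood test. There 11 of the 103 (10.7%) had an unadjusted p under 0.05, against 11.4% of all genes.

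cox8b, a small subunit of cytochrome c oxidase whose mammalian counterpart is an isoform of heart and skeletal muscle, stood at 85.1 and 84.6 CPM in controls. It stood at 114.2, 151.1 and 125.2 CPM in single mutants, 122.4, 143.4 and 140.5 in csf1rb heterozygotes, and 161.1, 166.3 and 150.4 in double mutants. All 9 mutant libraries lay above both controls, and the double mutants lay above the csf1rb heterozygotes without overlap. The log2 difference from controls was 0.90 ± 0.12 in double mutants (adjusted p = 0.00465), 0.66 ± 0.12 in csf1rb heterozygotes (adjusted p = 0.0368) and 0.60 ± 0.12 in single mutants (adjusted p = 0.0555, not past the threshold). The call in double mutants held in all 15 alternative settings, with adjusted p from 0.00296 to 0.0442. The call in csf1rb heterozygotes held in 10 of 15, and it was lost without control replicate 1 or 2, without csf1rb heterozygote replicate 2 or 3, and with only the 2 groups in the fit. In single mutants cox8b passed the test in 3 of 15 settings, namely without single mutant replicate 1 (adjusted p = 0.0420) and with a replicate block by title or description number (adjusted p = 0.0351 and 0.0379). The difference between double and single mutants (0.30, adjusted p = 0.285) did not pass the test. Between libraries that bear the same number in their sample descriptions, double mutant minus control was 0.91 for number 1 and 0.82 for number 3. These differences restate the values above and are no further test, since the numbers are not known to mark pairs.

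The sister gene cox8a stood at 161.0 and 199.3 CPM in controls and at 212.8, 219.7 and 200.9 CPM in double mutants, with a difference of 0.24 (adjusted p = 0.488). Reads of cox8b came to 52.9% and 42.5% of those of cox8a in controls and to 58.0% to 77.0% in the 9 mutant libraries, so the groups did not overlap on this within-library measure either. The 6 muscle markers in the table (of 10 listed) summed to 5.06 and 97.3 CPM in the controls and to 4.83 to 41.0 CPM in the mutants. Their part in the cox8b values was not tested. Similar patterns to that of cox8b across the libraries, again looked up after the fact, were those of trip12 (0.98), agla (0.96), cdc5l (0.95), plgrkt (0.95) and zgc:158482 (0.95).

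ndufb3, an accessory subunit in the membrane arm of complex I, stood at 37.5 and 45.0 CPM in controls, 47.3, 64.4 and 59.6 in single mutants, 68.3, 66.4 and 68.5 in csf1rb heterozygotes, and 89.0, 97.5 and 61.2 in double mutants. All mutant libraries lay above the controls, while double mutant replicate 3 lay below the csf1rb heterozygotes. The difference from controls was 0.96 ± 0.19 in double mutants (adjusted p = 0.0330), 0.71 ± 0.19 in csf1rb heterozygotes (adjusted p = 0.110) and 0.45 ± 0.19 in single mutants (adjusted p = 0.390). The call in double mutants was lost without either control and without double mutant replicate 1 or 2, and with only the 2 groups in the fit, with an adjusted p of up to 0.200. ndufb4, another accessory subunit of the same arm, differed by 0.03 between double mutants and controls.

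cox4i1l, a gene of the family of the regulatory subunit 4 of cytochrome c oxidase, was far lower than these in reads. It stood at 4.7 and 3.3 CPM in controls, 6.0, 6.3 and 3.8 in single mutants, 5.9, 6.0 and 8.4 in csf1rb heterozygotes, and 10.0, 9.8 and 12.3 in double mutants. The double mutants lay above all other libraries. The difference from controls was 1.24 ± 0.23 (adjusted p = 0.0309), and the one from single mutants 0.90 ± 0.21 (adjusted p = 0.0778). The call was lost in each of the 5 fits that leave out a library and with only the 2 groups in the fit, with an adjusted p of up to 0.227. Its relatives of the same family, cox4i1 and cox4i2, differed by 0.01 (adjusted p = 0.977) and 0.31 (adjusted p = 0.290) between double mutants and controls, and cox4i1l reads were 0.812% to 1.43% of those of cox4i1 in controls and 2.52% to 3.60% in double mutants. Whether reads of 50 nucleotides were shared between these genes was not tested.

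**Figure D4:**
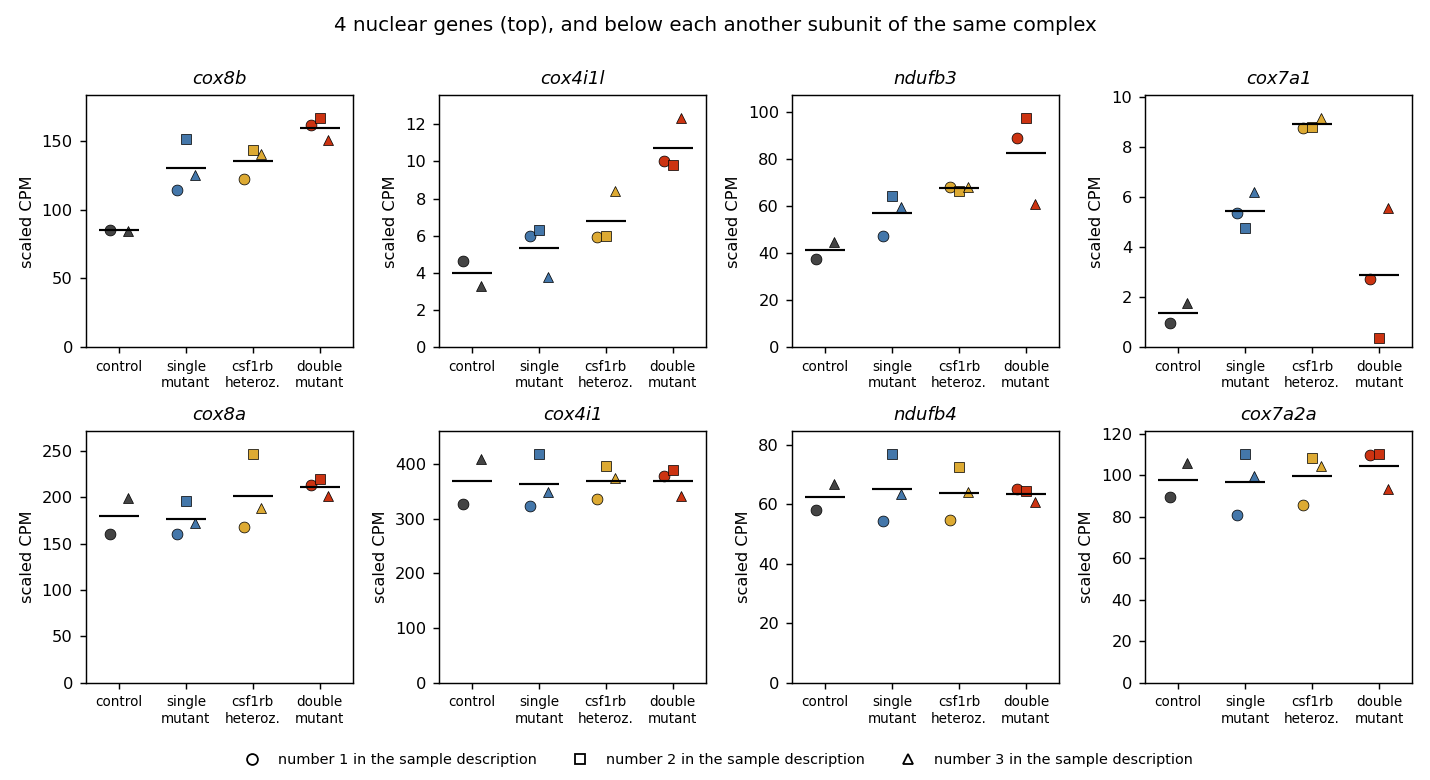
Scaled CPM per library of cox8b, cox4i1l, ndufb3 and cox7a1 (top) and of another subunit of the same complex below each (cox8a, cox4i1, ndufb4, cox7a2a), with bars at the group mean and symbols for the number in the sample description. cox8b stands at 84.6 and 85.1 CPM in controls and at 150.4 to 166.3 in double mutants, while cox7a1 is highest in csf1rb heterozygotes (8.77 to 9.14 CPM).

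cox7a1, in mammals the muscle isoform of a cytochrome c oxidase subunit, showed a different order of genotypes. It was singled out after its values were seen. It stood at 0.986 and 1.77 CPM in controls, 5.35, 4.76 and 6.19 in single mutants, 8.77, 8.78 and 9.14 in csf1rb heterozygotes, and 2.73, 0.359 and 5.56 in double mutants. The libraries of controls, single mutants and csf1rb heterozygotes did not overlap one another, and the double mutants spread from below the controls into the range of the single mutants. The difference from controls was 2.08 ± 0.48 in csf1rb heterozygotes (adjusted p = 0.0763) and 1.45 ± 0.48 in single mutants (adjusted p = 0.270), neither called. In csf1rb heterozygotes cox7a1 passed the test with a pseudocount of 5 (adjusted p = 0.0386), with only the 2 groups in the fit (adjusted p = 0.0161) and with a replicate block by description number (adjusted p = 0.0331). Its relative cox7a2a differed by 0.03 and -0.02 in those comparisons. With cox5b2 and ndufa9b, cox7a1 is 1 of 3 members with a mean under 5 CPM.

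Over all 103 nuclear genes, those described above included, the median differences were small, and their direction followed the choice of control library. In double mutants 75 of 103 had a mean above that of controls, with a median difference of 0.08, but without control replicate 1 the median was -0.05 with 42 of 103 above 0, and without control replicate 2 it was 0.22 with 84 of 103 above 0. By complex, the median in double mutants was 0.12 for complex I (33 of 41 above 0), -0.03 for complex II (4 of 9), 0.08 for complex III (5 of 7), 0.10 for complex IV (21 of 29) and 0.05 for complex V (12 of 17). Among the structural subunits 62 of 81 were above 0, and among the assembly factors 11 of 19. Every double mutant library was above both controls for 23 nuclear genes, 22.3% against 19.9% of all genes, and below both for 6, 5.83% against 16.6%. In single mutants the nuclear median was -0.02 with 44 of 103 above 0, and in csf1rb heterozygotes 0.01 with 58 of 103, and both changed sign when libraries were left out.

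**Figure D5:**
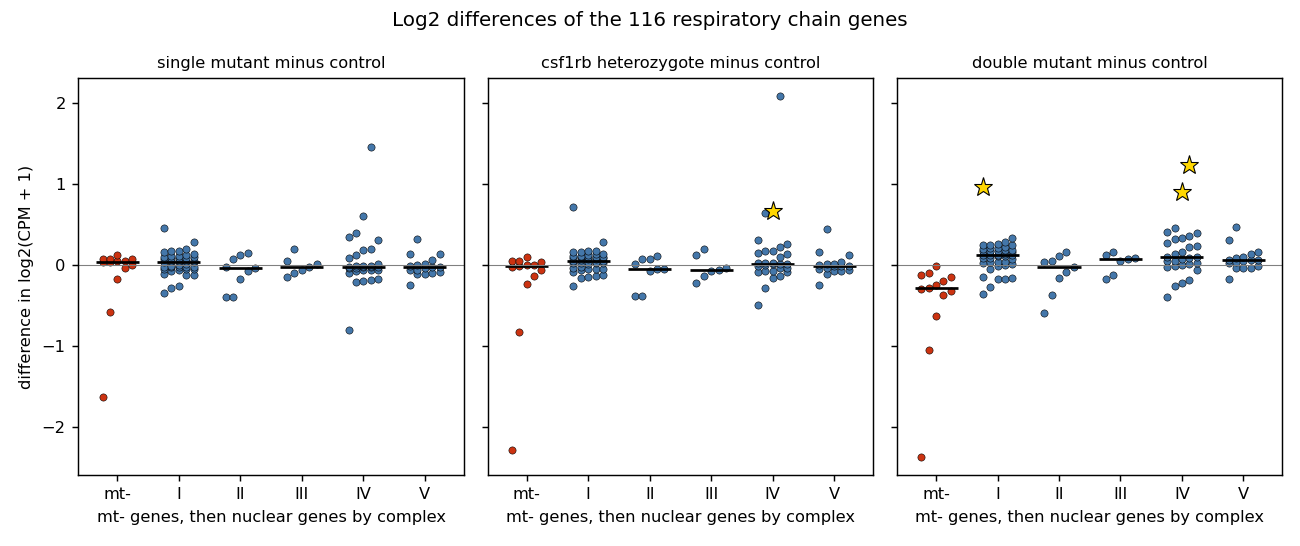
Difference in log2(CPM + 1) of each of the 116 genes between each mutant and control, for the mt- genes and for the nuclear genes of complexes I to V, with bars at the medians and stars for called genes. In double mutants the mt- median is -0.29 and the nuclear medians lie between -0.03 and 0.12.

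The nuclear structural subunits with the highest mean CPM in each complex illustrate this spread. ndufv1, which holds the NADH site of complex I, differed by 0.07 between double mutants and controls. sdha, the flavoprotein that oxidizes succinate, differed by 0.11. uqcrfs1, the Rieske iron-sulfur protein of complex III, stood at 153.1 and 233.2 CPM in controls, wider than the 183.6 to 203.7 CPM of double mutants, and differed by 0.04. ndufa4, now counted as a complex IV subunit, differed by -0.03 and atp5b, the catalytic beta subunit of ATP synthase, by 0.05. Each of these 5 differences changed sign under at least 1 alternative, and the lowest of their adjusted p-values was 0.707.

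Among nuclear genes with a mean of at least 5 CPM, sdhaf2 and sdhdb of complex II had the 2 largest negative differences from controls in each mutant genotype, ndufs8a of complex I was among the 4 largest in each, and none of these differences passed the test. sdhaf2, the factor that attaches flavin to the succinate dehydrogenase flavoprotein, stood at 45.9 and 48.1 CPM in controls, 41.0, 36.4 and 30.1 in single mutants, 35.1, 40.3 and 32.1 in csf1rb heterozygotes, and 25.9, 35.7 and 31.3 in double mutants. The controls lay above all 9 mutant libraries, with differences of -0.39, -0.39 and -0.60 (adjusted p = 0.392, 0.279 and 0.102). sdhdb, a membrane anchor of complex II, stood at 63.9 and 75.7 CPM in controls and at 47.7 to 61.2 CPM in the mutants, with differences of -0.39, -0.38 and -0.38 (adjusted p = 0.297, 0.216 and 0.214). ndufs8a, an iron-sulfur subunit of the arm of complex I that extends into the matrix, stood at 99.4 and 109.6 CPM in controls and at 77.3 to 88.5 CPM in the mutants, with differences of -0.29, -0.27 and -0.36 (adjusted p = 0.270, 0.222 and 0.101). The 3 comparisons share the 2 control libraries, so these repeated directions are not independent of each other.

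Other members named by size of difference also stayed below the threshold. ndufa1, a small membrane subunit of complex I, stood at 99.8 and 107.5 CPM in controls and at 79.6, 88.1 and 75.7 CPM in single mutants, a difference of -0.35 (adjusted p = 0.200). cox16, an assembly factor of complex IV, stood at 12.2 and 12.2 CPM in controls, 17.2, 15.7 and 15.9 in single mutants and 14.0, 12.3 and 13.1 in double mutants, with differences of 0.39 (adjusted p = 0.254) and 0.10. atp5s differed by 0.44 in csf1rb heterozygotes (adjusted p = 0.202) and by 0.46 in double mutants (adjusted p = 0.169). cox7a3, whose human counterpart joins complexes III and IV into supercomplexes, differed by -0.29 in csf1rb heterozygotes with overlapping ranges, and the complex I assembly factor ndufaf1 by -0.27 in double mutants, also with overlapping ranges.

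Between mutant genotypes no member was called. Of all genes, 0.187% were called between csf1rb heterozygotes and single mutants, 0.943% between double and single mutants and 0.0847% between double and csf1rb heterozygotes. By edgeR the count of members was 0 as well, with 0.145%, 0.949% and 0.0968% of all genes called. At an unadjusted p under 0.05 the members numbered 1, 13 and 6 of 116, against 6.28%, 11.3% and 5.22% of all genes. All 13 mt- genes had a lower mean in double mutants than in single mutants (median -0.29) and than in csf1rb heterozygotes (median -0.19), and under the other settings tried 12 or 13 of them did. The nuclear medians were 0.08 and 0.07 in those comparisons. These comparisons share the double mutant libraries with the one against controls. cox6b1, a complex IV subunit on the side of cytochrome c, was named after its values were seen because it was called under a replicate block. It stood at 110.5, 125.2 and 108.1 CPM in double mutants, above the 78.2 to 99.0 CPM of single mutants, the 70.6 to 93.5 CPM of csf1rb heterozygotes and the 78.9 and 104.6 CPM of controls, and differed from single mutants by 0.39 (adjusted p = 0.259).

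Across libraries, genes of the same class resembled one another more than genes of different classes did. The median Pearson correlation of log2(CPM + 1) over the 11 libraries was 0.73 among 78 pairs of mt- genes, 0.50 among 5253 pairs of nuclear genes and -0.06 among 1339 mixed pairs. Nuclear structural subunits were more alike (0.66) than assembly factors (0.10). Mean levels of the assembly factors lay between 8.50 and 36.5 CPM, and most nuclear structural subunits were above that, up to 1096 CPM (atp5b). The part of expression level and counting noise in these correlations was not tested. Taking each nuclear gene relative to its mean over libraries, the median was -0.16 in control replicate 1, -0.16 in single mutant replicate 1 and -0.15 in csf1rb heterozygote replicate 1, and 0.11 to 0.14 in the 3 mutant libraries numbered 2. Double mutant replicate 1, at 0.06, did not share the low value of the other libraries numbered 1. Control replicate 2 stood at 0.11. Replicate 3 of single mutants, csf1rb heterozygotes and double mutants stood at -0.067, -0.0012 and -0.011. Replicate numbers are those of the sample titles, and control replicate 2 bears the number 3 in its description. The labels do not say what a shared number means, and its part in these values was not tested.

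Genes of related pathways were looked up in 9 lists, and none of the listed genes was called in any of the 6 comparisons. Of all genes, 0.0847% to 1.16% were called in these comparisons, so 0 calls in lists of 12 to 89 genes is near that share. The lists covered mitochondrial transcription and DNA maintenance (18 genes in the table), regulators of mitochondrial biogenesis (12), electron carriers and respiratory chain genes with other symbols (27), the citrate cycle (20), import and carriers (19), the mitochondrial ribosome (73), the cytosolic ribosome (89), glycolysis (24) and the mitochondrial stress response (16). In double mutants against controls, 56 of 73 mitochondrial ribosome genes lay above 0 with a median of 0.14, 78 of 89 cytosolic ribosome genes with a median of 0.14, 13 of 18 genes of mitochondrial transcription and DNA maintenance with a median of 0.09, and 7 of 20 citrate cycle genes with a median of -0.10. In single mutants and csf1rb heterozygotes these counts were 57 and 54 for the mitochondrial ribosome and 84 and 78 for the cytosolic ribosome. They were 12 and 16 for mitochondrial transcription and DNA maintenance, and 7 and 5 for the citrate cycle. Of all genes, 50.9%, 50.2% and 52.0% lay above 0 in single mutants, csf1rb heterozygotes and double mutants. In double mutants the other lists had 17 of 27 (electron carriers), 6 of 12 (biogenesis) and 8 of 19 (import and carriers) above 0. Glycolysis had 13 of 24 and the stress response 8 of 16. In the same order, single mutants had 19, 5, 7, 6 and 10 above 0, and csf1rb heterozygotes 14, 4, 6, 6 and 8. These comparisons share the control libraries, and the counts per list were not taken with a library left out. On the GRCz12tu assembly annotated by RefSeq (the reads were placed on another build), 100 of the 103 nuclear members had a chromosome. Of these, 3 (cox18, ndufa1 and uqcrq) share the chromosome of csf1ra and 6 that of csf1rb (atp5ia, cox7b, cox8a, ndufa2, sdhaf1 and uqcr10). cox8b, cox4i1l and ndufb3 are in neither group, but which members lack a chromosome is not given here.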

How the data were processed

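The submitters' processing notes name HISAT2, edgeR and genome build GRCz10, with no versions. The program that counted reads per gene, its handling of reads shared between genes or strands, and the annotation release are not stated there. The deposited signal is CPM scaled by normalization factors of the authors, per the file headers and the values. 100% of values were whole reads within a tolerance of 0.001 reads, so reads were recovered. Every listed gene reached 1.97 CPM in 3 libraries, and 115 of 116 member IDs were in the reference gene name table. The authors' deposited log2 fold changes and p-values served only to name their calls.

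All 4 genotypes entered 1 limma fit (version 3.58.1) on log2(CPM + 1), its spread moderated along a mean-variance trend; this scale understates folds of low genes. Alternatives were a pseudocount of 0.5 or 5, a mean of at least 5 CPM, edgeR's quasi-likelihood test (4.0.16) on recovered reads, DESeq2 (1.42.0) size factors, other library totals, 2-group fits, replicate blocks and leaving out each library. The code was tested on simulated data. Named were all mt- genes, every called member, the 4 largest differences each way per mutant against control among nuclear genes, the nuclear structural subunit with the highest mean CPM per complex and the 5 most similar genes. Members and lists were chosen with earlier results of these data known. No label states that replicates are separate fish, so the spread behind each p-value may be technical.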

Additional observations from a re-analysis of the deposited data

How the results depend on the processing

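The call of cox8b in double mutants against controls held in every alternative tried. The number of nuclear members called there, 3, was 1 with only the 2 groups compared and 1 to 2 when a library was left out, and 1 mt- member (mt-nd4l) was called without double mutant replicate 2. In csf1rb heterozygotes against controls the number, 1, was 2 with a pseudocount of 5 (cox7a1 was added), 1 with only the 2 groups compared (cox7a1 in place of cox8b) and 0 to 1 when a library was left out. In single mutants against controls it was 0 to 1 when a library was left out (cox8b, without single mutant replicate 1), and between double mutants and either other mutant it was 0 to 1 (without double mutant replicate 3, ndufb3 against single mutants and cox7a1 against csf1rb heterozygotes).

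The numbers shared between groups did not meet the criterion for pairing, a correlation over 0.1 in every pair: those of 15 same-numbered pairs ranged from -0.01 to 0.64 with 9 over 0.1 by the description number, and from 0.03 to 0.64 with 8 over 0.1 by the title number. Between single mutants and csf1rb heterozygotes all 3 pairs were over 0.1 (0.31 to 0.64), and no member was called there with or without the block. With the replicate block by title or by description number, cox8b was also called in single mutants against controls (1 nuclear member each), and cox6b1 in double against single mutants (1 each). The replicate block by description number gave 2 nuclear members in csf1rb heterozygotes against controls (cox8b and cox7a1), and that by title number 1 (cox6b1) between double and csf1rb heterozygotes. Of all genes, the replicate block by title number called 322 in double mutants against controls, 294 against single and 24 against csf1rb heterozygotes. Without a block these counts were 192, 156 and 14. The replicate block by description number called 136 in single mutants against controls and 367 in double against single mutants, where 78 and 156 were called without it. The blocks with these counts called more genes in all, but members were not always added. In double mutants against controls the replicate block by title number called cox8b, cox4i1l and ndufb3, the same members as without a block. For the title-number block in single mutants and the description-number block in csf1rb heterozygotes, both against controls, the count of all genes is not given here.

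Among genes with a mean of at least 5 CPM, 44, 47 and 107 of all genes were called in single mutants, csf1rb heterozygotes and double mutants against controls, where 78, 111 and 192 were called without that filter, and 17, 96 and 6 between mutants (csf1rb heterozygotes against single, double against single, double against csf1rb heterozygotes), where 31, 156 and 14 were called. With only the 2 groups compared, 116 were called in double mutants against controls. Leaving out a library gave 29 to 65, 48 to 62 and 74 to 133 against controls and 9 to 16, 66 to 151 and 8 to 36 between mutants. The cause was not tested.

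With library totals that exclude mt- reads, mt- reads relative to those totals came to 8.77%, 8.65% and 7.64% in single mutants, csf1rb heterozygotes and double mutants and nuclear members to 1.32% and 1.38% in the latter 2, by construction of the smaller total.

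Differences of double mutants from controls changed sign. mt-nd1 was 0.028 without normalization factors, 0.015 with totals that exclude mt- reads and -0.088 to 0.029 when a library was left out. ndufa4 was 0.017 and 0.0045 in the first 2 of these settings, 0.028 with the replicate block by title number and -0.19 to 0.13 when a library was left out. With the replicate block by description number ndufv1, uqcrfs1 and atp5b were -0.0027, -0.0055 and -0.016. When a library was left out they ranged from -0.10 to 0.23, -0.26 to 0.34 and -0.13 to 0.24, and sdha from -0.015 to 0.23. cox8b in csf1rb heterozygotes against single mutants, 0.06, ranged from -0.026 to 0.17, and was below 0 without single mutant replicate 1.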
